A study of Mus musculus with 12 samples.

Results

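Hmox1 and 9 further genes of the NRF2 pathway were followed in mouse kidney cortex after LPS and an ethanol diet. The 10 genes were Hmox1, Nqo1, Gclc, Gclm, Txnrd1, Srxn1, Osgin1, Slc7a11, Nfe2l2 and Keap1, of 47719 genes in the table, and they were listed as members of the pathway with earlier results of these data known. All 10 were found by Ensembl identifier. Of them 9 reached 1 FPKM (fragments per kilobase of transcript scaled for library size, here as deposited in normalized form) in at least 3 libraries and were tested among 14109 genes. Slc7a11 did not. Hmox1, Osgin1 and Gclc had been selected on their FPKM differences between the groups, so their values are described here without a p, and where they are counted among calls nothing is read from the count.

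The tissue came from male C57BL6/J mice whose age is labelled as 8 weeks, in 4 groups of 3 libraries. EtOH_LPS mice were fed a Lieber-DeCarli liquid diet for 6 weeks, with ethanol raised in steps up to 6%, and were injected intraperitoneally with 10 mg/kg LPS, the endotoxin of Gram-negative bacteria, 4 hours before the kidneys were taken. EtOH mice had the ethanol diet and a saline injection. PF_LPS mice were pair-fed a diet of equal energy with maltose-dextrin replacing the ethanol and received the same LPS dose, and PF mice were pair-fed and received saline. The series compared LPS with saline within each diet, and the ethanol diet with pair-feeding. The labels do not state that the 3 libraries of a group came from different animals, so the p-values reflect variation among libraries that may be technical.

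NRF2, encoded by Nfe2l2, is a transcription factor that KEAP1 holds in the cytoplasm and delivers to the CUL3 ubiquitin ligase for degradation. Oxidants and electrophiles modify KEAP1, NRF2 then enters the nucleus, pairs with a small MAF protein and binds antioxidant response elements, which BACH1 occupies as a repressor. Its targets make glutathione, reduce thioredoxin and quinones, export conjugates and, through Hmox1, degrade heme to biliverdin, iron and carbon monoxide. In the kidney, heme oxygenase 1 is known for its induction in the proximal tubule after injury by heme proteins, ischemia or toxins.

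RefSeq promoter windows (GRCm38.p6), each 300 bases long from 250 bases before the gene start to 50 after it, were available for 8 of the 10 genes, as 10 windows. The core of the antioxidant response element, TGACNNNGC, was searched on both strands together with its variant TGAGNNNGC, which shares letters with the AP-1 site TGAGTCA. Of 32851 windows of the same length 12.4% held the first, 17.6% the second and 27.8% either, and 6 of the 10 windows of these genes did, from 6 genes. The windows of Nqo1 and Keap1 held neither in these 300 bases. Printed 5′ to 3′ on the strand of the gene, with matches in capitals, are 4 windows, picked among those that held a match and on the levels of their genes. Nothing is therefore read from match and level going together in them. Nfe2l2 and Txnrd1 carried calls after LPS, and Srxn1 and Osgin1 were higher in every EtOH_LPS library than in every PF_LPS library. Nqo1 was likewise higher in every EtOH_LPS library, but its window held no match and is not printed.
Nfe2l2, chr2:75704614-75704913, minus strand: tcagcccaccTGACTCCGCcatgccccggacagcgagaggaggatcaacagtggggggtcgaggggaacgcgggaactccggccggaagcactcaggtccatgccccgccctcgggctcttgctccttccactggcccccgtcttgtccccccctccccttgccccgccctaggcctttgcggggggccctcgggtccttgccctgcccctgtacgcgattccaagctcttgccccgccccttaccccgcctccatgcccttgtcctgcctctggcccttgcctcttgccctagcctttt
Txnrd1, chr10:82858956-82859255, plus strand: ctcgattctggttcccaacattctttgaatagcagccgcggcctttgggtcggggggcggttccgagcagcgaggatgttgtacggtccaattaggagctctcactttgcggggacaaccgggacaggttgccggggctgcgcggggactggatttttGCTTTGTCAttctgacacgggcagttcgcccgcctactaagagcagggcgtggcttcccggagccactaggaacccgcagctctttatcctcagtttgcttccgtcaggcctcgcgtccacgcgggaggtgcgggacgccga
Srxn1, chr2:152105274-152105573, plus strand: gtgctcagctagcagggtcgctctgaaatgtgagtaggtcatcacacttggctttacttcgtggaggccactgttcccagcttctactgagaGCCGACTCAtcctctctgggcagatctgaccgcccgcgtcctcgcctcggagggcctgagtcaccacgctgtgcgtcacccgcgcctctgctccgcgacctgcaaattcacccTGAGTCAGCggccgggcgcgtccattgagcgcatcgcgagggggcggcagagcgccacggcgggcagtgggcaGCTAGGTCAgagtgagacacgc
Osgin1, chr8:119436897-119437196, plus strand: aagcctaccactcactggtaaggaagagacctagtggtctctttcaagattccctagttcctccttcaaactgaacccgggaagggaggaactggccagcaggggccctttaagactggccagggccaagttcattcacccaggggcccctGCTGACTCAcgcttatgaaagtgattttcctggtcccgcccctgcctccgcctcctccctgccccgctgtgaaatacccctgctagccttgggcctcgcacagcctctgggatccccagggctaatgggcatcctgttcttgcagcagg
The Nfe2l2 window held TGACTCCGC near its 5′ end. The Srxn1 window held 3 matches, of which TGAGTCAGC lay 45 bases before the gene start and contains the letters of the AP-1 site. The match in the Osgin1 window, 99 bases before that gene start, reads TGAGTCAGC on the opposite strand. The Osgin1 and Txnrd1 windows lie inside the GENCODE M21 spans of these genes, so they belong to downstream starts. Gclm and Slc7a11 had 1 match each, in windows that are not printed, and Txnrd1 had 1 match in 1 of its windows. Such letters are a description of sequence and no evidence of binding.

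**Figure D1:**
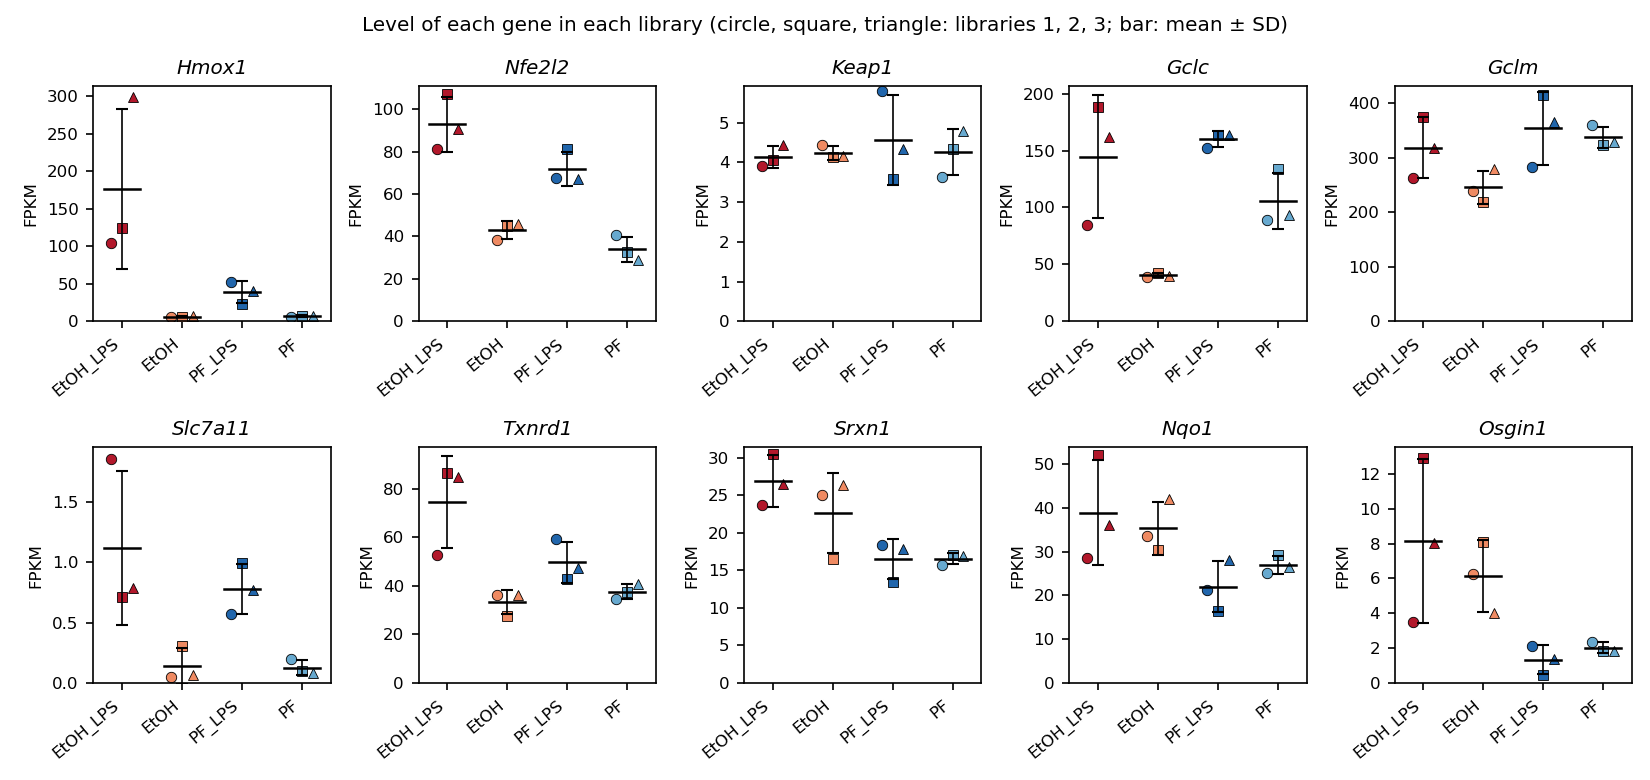
FPKM of the 10 genes (y axis, linear, from 0) in each of 12 libraries, with groups EtOH_LPS, EtOH, PF_LPS and PF on the x axis; points are libraries, bars the mean and SD of 3. Hmox1, Nfe2l2, Txnrd1 and Slc7a11 were higher in all LPS libraries than in any saline library, and Osgin1 was higher in all ethanol libraries than in any pair-fed library.

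Of the 10 genes, Hmox1, Nfe2l2, Gclc, Txnrd1 and Slc7a11 were higher in every LPS library than in every saline library of the same diet, and Nqo1 and Osgin1 were higher in every ethanol library than in every pair-fed library of the same injection. Keap1 showed neither. In EtOH_LPS against EtOH, 4 of the 9 tested genes had an adjusted p under 0.05 by limma, all 4 higher (Hmox1, Gclc, Nfe2l2 and Txnrd1), while 17.1% of all tested genes were called, 10.7% higher and 6.39% lower. In PF_LPS against PF, 2 of 9 were called, both higher (Hmox1 and Nfe2l2), with 18.2% of all genes called, 11.3% higher and 6.89% lower. In EtOH against PF none of the 9 was called, with 0.0284% of all genes called. An unadjusted limma p under 0.05 was reached by 3 of the 9 and by 521 of all 14109 genes. In EtOH_LPS against PF_LPS none was called, with 0.0992% of all genes called, while 5 of the 9 and 1524 of all 14109 genes had an unadjusted p under 0.05. Over both ethanol groups against both pair-fed groups 1 was called (Osgin1), with 0.319% of all genes called. In the interaction of diet and LPS none was called, with 0.0284% of all genes called. There 3 of the 9 and 616 of all 14109 genes had an unadjusted p under 0.05. Single libraries changed these counts: without EtOH_LPS library 1, 2 genes (Hmox1 and Osgin1) were called in EtOH_LPS against PF_LPS and 3 (with Gclc) in PF_LPS against PF, and without PF_LPS library 1, 1 gene (Hmox1) was called in EtOH_LPS against PF_LPS. The call over both diets ended when any library other than these was left out. The counts include Hmox1, Gclc and Osgin1, whose own differences led to their selection. Of the other 6 tested genes 2 were called in EtOH_LPS against EtOH, 1 in PF_LPS against PF and none in the other comparisons. Because the genes were listed with such results known, nothing is read from these counts.

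The groups did not overlap for 5 of 10 genes in EtOH_LPS against EtOH, 5 of 10 in PF_LPS against PF and 5 of 10 in EtOH_LPS against PF_LPS, each time higher in the first-named group. Of all tested genes 18.8%, 18.5% and 5.34% were separated in that direction in these comparisons. In EtOH against PF, 2 of 10 were separated upwards (Nqo1 and Osgin1), with 5.63% of all genes, and 2 downwards (Gclc and Gclm), with 6.93%. The comparisons share libraries: PF_LPS and EtOH_LPS each enter an LPS comparison and a diet comparison. Among the genes counted are Hmox1, Gclc and Osgin1, selected on such differences, and Slc7a11, which was not among the tested genes. Nothing is therefore read from these counts either.

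The libraries were not alike in base composition or, by estimate, in depth. Fragment totals are not in the table, so depth was estimated only relatively, from the steps between low values. These steps follow the scaling already applied to the deposited values. The estimate was 0.491 to 0.762 in LPS libraries and 0.72 to 1.199 in saline libraries, with the first PF library at 1. Summed FPKM ran between 1005219 and 1935824. In 3 libraries GC-rich genes were low relative to the group mean: EtOH_LPS library 1 (slope of -0.308 log2 per 10% GC), PF_LPS library 2 (-0.412) and PF library 1 (-0.248), against -0.077 to 0.214 in the other 9. EtOH_LPS library 1 was the lowest of its group for 9 of the 10 genes and the highest for Slc7a11, whose transcripts have the lowest GC content of the 10 (40.7%). PF_LPS library 2 was the lowest of its group for 6 of the 10 and the highest for 3, and PF library 1 the lowest for 6 and the highest for 4. EtOH library 2, with a slope of -0.027, was the lowest for 5 and the highest for 3. Each slope is taken from the group mean, so 1 low library raises the slopes of the others in its group. Scaling also matters: with equal total FPKM in every library the median of all genes moved by -0.40 in PF_LPS against PF and by -0.28 in EtOH_LPS against EtOH, and by 0.19 in EtOH_LPS against PF_LPS. The calls of all genes in PF_LPS against PF were then 858 higher and 2565 lower in place of 1589 and 972, and in EtOH_LPS against EtOH 974 and 1772 in place of 1504 and 902.

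Hmox1 encodes the inducible heme oxygenase (ENSMUSG00000005413, chromosome 8, 75093621 to 75100589, plus strand, GENCODE M21 on GRCm38, the assembly mm10). It stood at 105, 125 and 299 FPKM in the EtOH_LPS libraries, against 6.08, 6.17 and 6.56 FPKM in the EtOH libraries. In the PF_LPS libraries it stood at 52.9, 23.7 and 40.5 FPKM, against 5.77, 7.6 and 7.65 FPKM in the PF libraries. The lowest EtOH_LPS library was thus above the highest PF_LPS library, and both LPS groups lay above all saline libraries. Group means were 177 ± 107 FPKM in EtOH_LPS, 39 ± 14.7 in PF_LPS, 7.01 ± 1.07 in PF and 6.27 ± 0.253 in EtOH (SD, n = 3 each), in this order. PF and EtOH, the neighbours at the low end, overlapped (log2 fold change of EtOH against PF -0.13 ± 0.36, SE).

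The mean level of Hmox1 was 28.2 times as high in EtOH_LPS as in EtOH and 5.57 times as high in PF_LPS as in PF. On the log2(FPKM + 1) scale the fold changes were 4.45 ± 0.36 and 2.26 ± 0.36 (SE). The difference between these responses, the interaction of diet and LPS, was 2.19 ± 0.51, and EtOH_LPS was 2.06 ± 0.36 above PF_LPS. EtOH_LPS library 3 carried part of the excess: without it, EtOH_LPS against PF_LPS gave 1.60 and EtOH_LPS against EtOH gave 3.99. With equal total FPKM, the fold change in PF_LPS against PF was 1.79.

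Hmox2, the constitutive paralog, showed no such pattern, with 22.9, 30.6 and 25.8 FPKM in EtOH_LPS, 35.3, 18.9 and 34.8 in EtOH, 27.2, 16.8 and 32.6 in PF_LPS and 31, 34.9 and 36.8 in PF. In FPKM, which is per transcript length, the ratio of Hmox1 to Hmox2 was 4.08 to 11.6 in EtOH_LPS libraries and 1.24 to 1.95 in PF_LPS libraries, against 0.172 to 0.326 in EtOH and 0.186 to 0.218 in PF libraries. Hmox1 was therefore the more abundant transcript of the pair in all 6 LPS libraries and the less abundant in all 6 saline libraries.

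Among 8 genes of heme and iron handling, all tested, 2 rose in EtOH_LPS against EtOH and 1 rose in PF_LPS against PF, and none fell by limma, beside 10.7% and 11.3% of all tested genes called higher. Slc40a1, the iron exporter ferroportin, rose in both: it averaged 47.4 FPKM in EtOH_LPS and 21.9 FPKM in EtOH (log2 fold change 1.08 ± 0.15, adjusted p = 0.000392), and 59.6 FPKM in PF_LPS and 30.7 FPKM in PF (0.93 ± 0.15, adjusted p = 0.00108). With equal total FPKM its adjusted p in the pair-fed comparison was 0.0884. Fth1, the ferritin heavy chain that stores iron, stood at 2684, 4710 and 4016 FPKM in EtOH_LPS, against 2188, 1840 and 1922 FPKM in EtOH (log2 fold change 0.90 ± 0.25, limma adjusted p = 0.0262). This call ended under 10 of the alternative settings, with adjusted p-values of up to 0.374, among them those without EtOH_LPS library 2 (0.109) or 3 (0.0898) and without any 1 of the EtOH libraries (0.0551, 0.0884 and 0.077). Fth1 has processed pseudogenes of near-identical sequence, so its level is uncertain. The biliverdin reductases Blvra and Blvrb, the light chain Ftl1, Hmox2, ferrochelatase Fech and the heme transporter Slc48a1 did not pass in either comparison. The list median was 0.07 in EtOH_LPS against EtOH and -0.14 in PF_LPS against PF, beside 0.02 and -0.01 for all genes, and with equal total FPKM it was -0.26 and -0.58. With that scaling 1 gene rose and none fell in the first comparison, beside 974 and 1772 of all 14109 genes. In the second none rose and 1 fell, beside 858 and 2565.

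Nfe2l2 (ENSMUSG00000015839, chromosome 2, 75675513 to 75704641, minus strand) encodes NRF2 itself. Its transcripts stood at 81.4, 107 and 90.6 FPKM in EtOH_LPS, against 38.2, 45 and 45.8 FPKM in EtOH, and at 67.6, 81.2 and 67 FPKM in PF_LPS, against 40.6, 32.5 and 29.1 FPKM in PF. The LPS and saline libraries did not overlap in either diet. Nfe2l2 rose by 1.09 ± 0.18 log2 units in EtOH_LPS against EtOH (limma adjusted p = 0.00115) and by 1.06 ± 0.18 in PF_LPS against PF (adjusted p = 0.00128). With equal total FPKM the pair-fed value was 0.57, with an adjusted p of 0.05, while the median of all genes was -0.41. EtOH_LPS exceeded PF_LPS by 0.36 ± 0.18, which did not pass (adjusted p = 0.487). A small nuclear RNA gene on the same strand, Gm24996, lies inside Nfe2l2 and was listed at up to 51.4 FPKM, so fragments may be shared.

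Keap1 (ENSMUSG00000003308, chromosome 9, 21229730 to 21239361, minus strand), the inhibitor of NRF2, was between 3.57 and 5.8 FPKM in all 12 libraries. Group means were 4.14 ± 0.271 FPKM in EtOH_LPS, 4.24 ± 0.167 in EtOH, 4.57 ± 1.13 in PF_LPS and 4.26 ± 0.581 in PF (SD, n = 3 each), and all 4 groups overlapped. The antisense gene Gm16754 was listed at 0.305 to 1.53 FPKM at the same place, and the strand setting of the counting is not given, so the values may share fragments.

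Of 12 regulators and partners of NRF2, all tested, 4 rose and none fell in EtOH_LPS against EtOH, and 3 rose and 1 fell in PF_LPS against PF. Of all tested genes 10.7% rose and 6.39% fell in the first comparison, and 11.3% rose and 6.89% fell in the second. The small MAF genes moved unequally. Maff stood at 18.6, 34.4 and 48.2 FPKM in EtOH_LPS, against 0.399, 0.772 and 0.32 FPKM in EtOH (log2 fold change 4.45 ± 0.36, limma adjusted p = 3.15e-06). In PF_LPS it stood at 18.5, 8.68 and 20.3 FPKM, against 0.51, 1.2 and 0.908 FPKM in PF (3.10 ± 0.36, adjusted p = 6.71e-05). Mafk rose by 1.86 ± 0.24 in EtOH_LPS against EtOH (adjusted p = 0.000173) and by 1.42 ± 0.24 in PF_LPS against PF (adjusted p = 0.00127), whereas Mafg was not called.

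Bach1, which competes with NRF2 for the same elements and represses Hmox1, stood at 14.9, 18.8 and 21.8 FPKM in EtOH_LPS, against 6.32, 6.74 and 8.58 FPKM in EtOH (log2 fold change 1.24 ± 0.19, limma adjusted p = 0.000617). In PF_LPS it stood at 15.1, 15.8 and 12.3 FPKM, against 8.87, 6.75 and 7.62 FPKM in PF (0.81 ± 0.19, adjusted p = 0.0101), a call that ended with equal total FPKM (adjusted p = 0.24) and without PF library 2 (adjusted p = 0.0545). So transcripts of the activator Nfe2l2, of its partners Maff and Mafk and of the repressor Bach1 were all higher after LPS. Sqstm1, the autophagy receptor p62 that sequesters KEAP1, rose in EtOH_LPS, at 416, 781 and 962 FPKM against 313, 206 and 251 FPKM in EtOH (1.42 ± 0.30, adjusted p = 0.00615, and 0.064 with equal total FPKM). Btrc, a substrate adaptor of a ubiquitin ligase that also acts on NRF2, fell in PF_LPS, at a mean of 1.21 FPKM against 2.33 FPKM in PF (-0.59 ± 0.14, adjusted p = 0.0109), and without PF library 2 its adjusted p was 0.0537. The list median was 0.16 in EtOH_LPS against EtOH and -0.03 in PF_LPS against PF, and turned to -0.15 in the first with equal total FPKM. With that scaling 3 genes of the list rose and 1 fell in the first comparison, beside 974 and 1772 of all 14109 genes. In the second 2 rose and 1 fell, beside 858 and 2565.

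**Figure D2:**
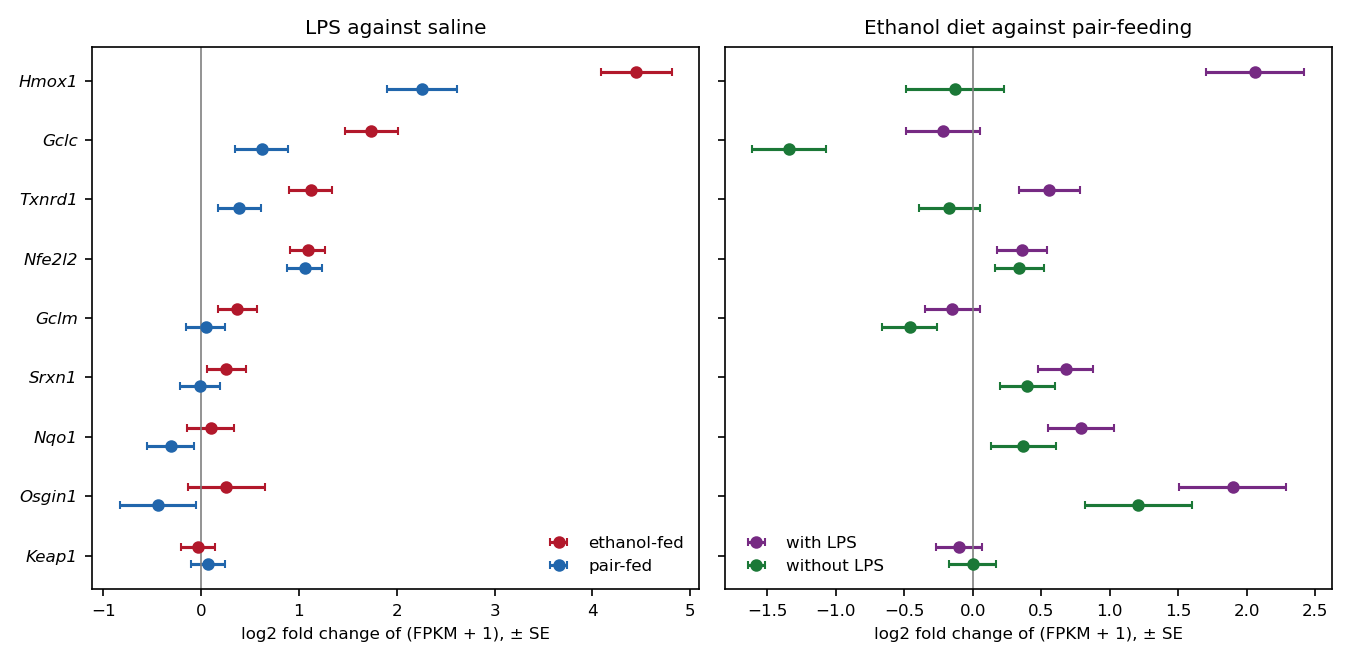
Log2 fold changes of FPKM + 1 (x axis; points with standard errors of the limma fit) for the 9 tested genes, with LPS against saline in ethanol-fed and pair-fed mice on the left and the ethanol diet against pair-feeding with and without LPS on the right. Hmox1 had the highest LPS fold change of the 9 on both diets (4.45 and 2.26), and Gclc the lowest diet fold change without LPS (-1.34).

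Gclc and Gclm encode the catalytic and modifier subunits of glutamate-cysteine ligase, the rate-limiting enzyme of glutathione synthesis. Gclc (ENSMUSG00000032350, chromosome 9, 77754535 to 77794485, plus strand) stood at 84.3, 188 and 162 FPKM in EtOH_LPS, against 39, 42.3 and 40 FPKM in EtOH, and at 152, 164 and 164 FPKM in PF_LPS, against 89.3, 134 and 93.7 FPKM in PF. The EtOH libraries were the lowest of all, and no other library was under 84.3 FPKM. The log2 fold changes were 1.74 ± 0.27 in EtOH_LPS against EtOH, 0.62 ± 0.27 in PF_LPS against PF and -1.34 ± 0.27 in EtOH against PF, and the LPS responses differed by 1.12 ± 0.38 between the diets. In EtOH_LPS against EtOH the value was 2.08 without EtOH_LPS library 1, 1.41 with equal total FPKM and 1.38 with quantile normalization, and in PF_LPS against PF it was 0.12 with equal total FPKM. After LPS the diets overlapped, with 145 ± 53.9 FPKM in EtOH_LPS and 160 ± 6.96 FPKM in PF_LPS (SD, n = 3 each).

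Beside the low Gclc of EtOH libraries, the summed level of 8 proximal tubule markers was 43040 to 48647 FPKM in EtOH and 55199 to 81729 FPKM in PF, and none of the 8 was called between these groups. The androgen-regulated Kap made up nearly all of the sum, at 41016 to 46567 FPKM in EtOH and 52866 to 79906 FPKM in PF, while the other 7 markers summed to 2024 to 2079 FPKM in EtOH and 1823 to 2334 FPKM in PF, which overlap. The part of these markers in the result was not tested. Such tissue RNA cannot tell fewer cells of a type from less RNA per cell.

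Gclm (ENSMUSG00000028124, chromosome 3, 122245557 to 122270732, plus strand), like Gclc, was lower in every EtOH library than in every PF library. It stood at 262, 374 and 318 FPKM in EtOH_LPS, against 238, 219 and 279 FPKM in EtOH, and at 282, 414 and 366 FPKM in PF_LPS, against 359, 323 and 329 FPKM in PF. LPS and saline libraries overlapped on each diet. The fold change in EtOH against PF of -0.46 ± 0.20 did not pass (limma adjusted p = 1). In EtOH_LPS against EtOH it was 0.37 ± 0.20 (adjusted p = 0.279), and quantile normalization turned it to -0.08. The ratio of Gclc to Gclm in FPKM was 0.322 to 0.509 in EtOH_LPS and 0.396 to 0.54 in PF_LPS, against 0.143 to 0.193 in EtOH and 0.249 to 0.416 in PF, so the ratio was lowest in EtOH.

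Slc7a11 (ENSMUSG00000027737, chromosome 3, 49892526 to 50443614, minus strand), the cystine-glutamate exchanger xCT that supplies cysteine for glutathione, stood at 1.86, 0.716 and 0.789 FPKM in EtOH_LPS, against 0.0468, 0.309 and 0.061 FPKM in EtOH. In PF_LPS it stood at 0.573, 0.994 and 0.77 FPKM, against 0.199, 0.101 and 0.0799 FPKM in PF. Every LPS library was above every saline library, at levels where FPKM rest on few fragments. Because a single library reached 1 FPKM it was not tested. Of 6 further genes of glutathione supply and reduction 5 were tested and none was called in any comparison. They were glutathione synthetase Gss, glutathione reductase Gsr, the xCT partner Slc3a2, Ggt1 and Ggct. Their median was 0.13 in EtOH_LPS against EtOH and -0.29 in PF_LPS against PF.

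Txnrd1 (ENSMUSG00000020250, chromosome 10, 82833951 to 82897712, plus strand) encodes cytosolic thioredoxin reductase, which keeps thioredoxin reduced. It stood at 52.9, 86.6 and 84.9 FPKM in EtOH_LPS, against 36.2, 27.7 and 36.2 FPKM in EtOH, and rose by 1.12 ± 0.22 log2 units (limma adjusted p = 0.0037). In PF_LPS it stood at 59.2, 42.7 and 47.4 FPKM, against 34.5, 37.4 and 40.7 FPKM in PF, groups that did not overlap but did not pass (0.39 ± 0.22, adjusted p = 0.249). With equal total FPKM the ethanol-fed value was 0.79 (adjusted p = 0.0954) and the pair-fed value turned to -0.10, with medians of all genes at -0.26 and -0.41. EtOH_LPS and PF_LPS, at 74.8 ± 19 and 49.8 ± 8.5 FPKM (SD, n = 3 each), overlapped (0.56 ± 0.22, adjusted p = 0.382).

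Txn1, thioredoxin, is the substrate of that reductase. It averaged 331 FPKM in EtOH_LPS and 152 FPKM in EtOH (log2 fold change 1.14 ± 0.24, limma adjusted p = 0.00581), and 359 FPKM in PF_LPS and 198 FPKM in PF (0.83 ± 0.24, adjusted p = 0.0319). The pair-fed call ended under 9 alternative settings, including equal total FPKM (adjusted p = 0.352) and the settings without PF_LPS library 3 or any 1 of the PF libraries (0.0905 for that library, and 0.0646, 0.114 and 0.0863 without PF library 1, 2 or 3). Of the 4 genes of the thioredoxin and peroxiredoxin list 1 rose in each LPS comparison, Txn1, beside 10.7% of all tested genes on the ethanol diet and 11.3% with pair-feeding. Prdx1, the most abundant of them, averaged 1140 FPKM in EtOH_LPS and 882 FPKM in EtOH (0.39 ± 0.22, adjusted p = 0.273). Prdx6 and mitochondrial Txnrd2 were not called either.

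Srxn1 (ENSMUSG00000032802, chromosome 2, 152105516 to 152111376, plus strand), sulfiredoxin, restores overoxidized peroxiredoxins. It stood at 23.7, 30.5 and 26.5 FPKM in EtOH_LPS, against 18.3, 13.4 and 17.8 FPKM in PF_LPS, and at 25, 16.5 and 26.4 FPKM in EtOH, against 15.7, 17 and 16.9 FPKM in PF. After LPS the diets did not overlap, yet the fold change of 0.68 ± 0.20 did not pass (limma adjusted p = 0.224), nor did that over both injections (0.54 ± 0.14, adjusted p = 0.176). LPS libraries overlapped with saline libraries on each diet.

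Nqo1 (ENSMUSG00000003849, chromosome 8, 107388225 to 107403206, minus strand), the quinone reductase often used as a readout of NRF2, stood at 28.5, 52 and 36.1 FPKM in EtOH_LPS, against 21.2, 16.5 and 28.1 FPKM in PF_LPS. Without LPS it stood at 33.6, 30.4 and 42.1 FPKM in EtOH, against 25.1, 29.2 and 26.4 FPKM in PF. Ethanol libraries were above pair-fed libraries in both states, by a margin as narrow as 28.5 against 28.1 FPKM after LPS. The fold changes were 0.79 ± 0.24 with LPS (limma adjusted p = 0.255), 0.37 ± 0.24 without (adjusted p = 1) and 0.58 ± 0.17 over both (adjusted p = 0.25), none past the threshold. Saline and LPS libraries overlapped on each diet.

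Osgin1 (ENSMUSG00000074063, chromosome 8, 119434124 to 119446256, plus strand) encodes an oxidative stress induced growth inhibitor. It stood at 3.51, 12.9 and 8.03 FPKM in EtOH_LPS, against 2.12, 0.456 and 1.38 FPKM in PF_LPS, and at 6.23, 8.12 and 3.99 FPKM in EtOH, against 2.37, 1.83 and 1.82 FPKM in PF. All 6 ethanol libraries were above all 6 pair-fed libraries. Group means were 8.15 ± 4.7 FPKM in EtOH_LPS, 6.11 ± 2.06 in EtOH, 2.01 ± 0.316 in PF and 1.32 ± 0.836 in PF_LPS (SD, n = 3 each), in this order, and within each diet the LPS and saline libraries overlapped. The log2 fold changes were 1.90 ± 0.39 with LPS, 1.21 ± 0.39 without and 1.55 ± 0.28 over both injections. With a pseudocount of 0.1 in place of 1 FPKM they were 2.57 with LPS and 2.04 over both, since the gene is low in pair-fed libraries. Osgin1 transcripts have the highest GC content of the 10 genes (59.3%), and among the 3 libraries in which GC-rich genes were low it was the lowest of the group in EtOH_LPS library 1 and PF_LPS library 2 but the highest in PF library 1.

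Hmox1 and Osgin1 were selected on such differences, so setting them side by side is a description only. Hmox1 overlapped between the diets without LPS and was high in every LPS library. After LPS it was also higher in every ethanol library than in every pair-fed library. Osgin1 overlapped between LPS and saline within each diet and was higher in every ethanol library than in every pair-fed library.

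The lists of conjugation, NADPH supply and export held no call in any of the 6 comparisons of the main fit. They comprise 10 glutathione S-transferases (8 tested), 6 genes of NADPH supply (6 tested), 7 of quinone, carbonyl and epoxide metabolism (5 tested) and 4 exporters (3 tested). With equal total FPKM 1 gene of each list was called lower in PF_LPS against PF, beside 2565 of all 14109 genes. Quantile normalization, and the setting without the 3 libraries in which GC-rich genes were low, also called single genes of some of these lists in LPS comparisons. Gsta2, whose paralogs share sequence, averaged 344 FPKM in EtOH_LPS and 152 FPKM in PF_LPS, groups that did not overlap (1.14 ± 0.26, limma adjusted p = 0.127). Abcc4, an exporter of conjugates and urate, averaged 15 FPKM in EtOH_LPS and 7.48 FPKM in PF_LPS (0.90 ± 0.23, adjusted p = 0.157), and 8.84 FPKM in EtOH and 5.61 FPKM in PF (0.58 ± 0.23, adjusted p = 1). Akr1b8, an aldo-keto reductase, averaged 2.81 FPKM in PF_LPS and 0.757 FPKM in PF (0.99 ± 0.32, adjusted p = 0.0557). Ephx1, microsomal epoxide hydrolase, averaged 6.31 FPKM in PF_LPS and 11.9 FPKM in PF (-0.83 ± 0.29, adjusted p = 0.0705). These 4 genes and Prdx1 were picked after their values were seen.

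**Figure D3:**
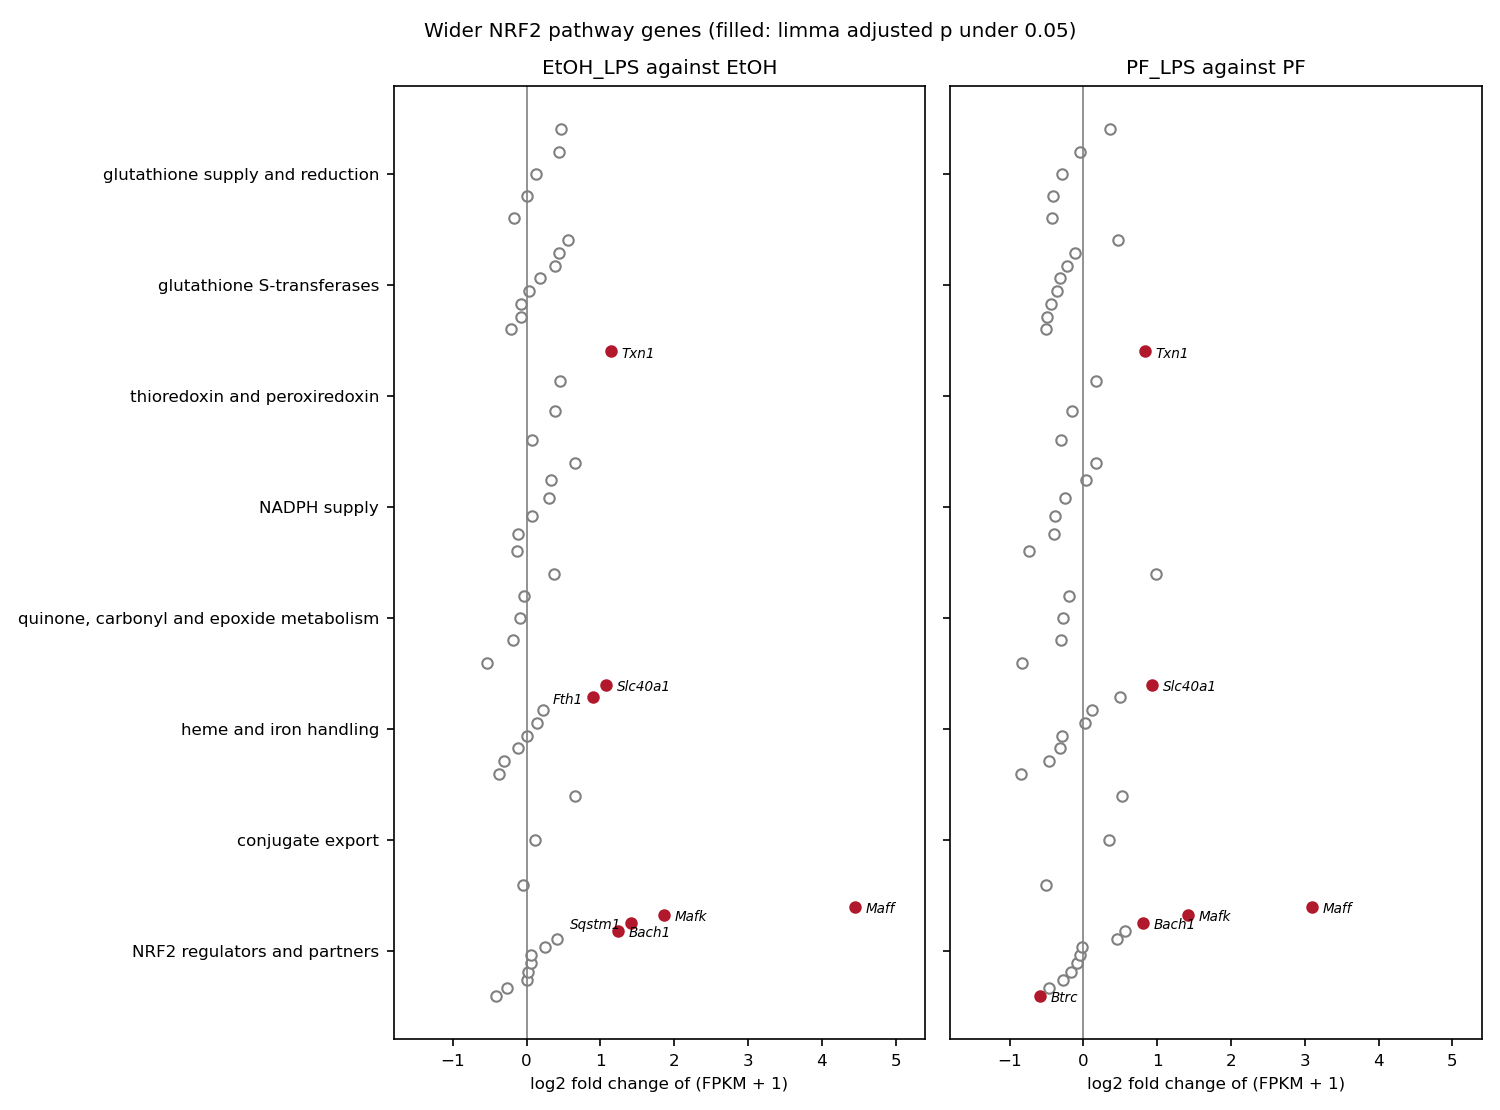
Log2 fold changes of FPKM + 1 (x axis) of the 51 tested genes of the wider pathway, by list (rows), in EtOH_LPS against EtOH on the left and PF_LPS against PF on the right; filled points passed limma's adjusted p of 0.05 and are named. The calls lie in 3 of the 8 lists, and Maff has the highest value on both sides (4.45 and 3.10).

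Taking the 8 lists as a whole, 51 of 57 genes were tested. In EtOH_LPS against EtOH 7 rose and none fell, and in PF_LPS against PF 5 rose and 1 fell, beside 17.1% and 18.2% of all tested genes called in either direction. These directions depended on scaling. With equal total FPKM 2 rose and 6 fell in PF_LPS against PF, beside 858 and 2565 of all 14109 genes. In EtOH_LPS against EtOH 5 rose and 1 fell, beside 974 and 1772. With quantile normalization 5 rose and 5 fell in PF_LPS against PF, beside 1388 and 1168 of all genes. In EtOH_LPS against EtOH 6 rose and none fell, beside 1279 and 971. No gene of the lists was called in the other comparisons. Per diet comparison 6 to 10 of the 51 genes had an unadjusted p under 0.05, beside 521 to 1524 of all 14109 genes. In the interaction 1 had, beside 616 of all genes. The median log2 fold change was 0.12 in EtOH_LPS against EtOH and -0.19 in PF_LPS against PF, beside 0.02 and -0.01 for all genes. With equal total FPKM the medians were -0.20 and -0.66, so the first changed sign, as it did with quantile normalization (-0.10). The median was 0.32 in EtOH_LPS against PF_LPS and 41 of the 51 genes were higher in EtOH_LPS, beside 6971 of 14109 for all genes. Some cell type markers moved with it in this comparison: the median was 0.37 for proximal tubule (7 of 8 higher), 0.52 for thick ascending limb, distal tubule and collecting duct (5 of 6), 0.29 for podocytes (4 of 4) and 0.30 for endothelium (6 of 6). It was 0.11 for erythroid markers (4 of 5) and -0.01 for macrophages (3 of 6). Neutrophil and inflammatory monocyte markers went the other way, with a median of -0.52 (0 of 6 higher). None of these markers was called. The part of these in the list's median was not tested.

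The genes whose levels over the 12 libraries were most like Hmox1 were chosen among 8201 protein-coding genes with a group mean of at least 5 FPKM. They were Btg2, an antiproliferative early response gene (Pearson r = 0.981), the predicted gene Gm5483 (0.981), Lix1l (0.970), the small MAF gene Maff (0.969) and the stress-responsive Fam129a (0.968). The 12 libraries form 4 groups, which sets most of r. After removing group means r was 0.689 for Btg2, 0.738 for Gm5483, 0.509 for Lix1l, 0.840 for Maff and 0.521 for Fam129a. Btg2 averaged 95.6 ± 31.6 FPKM in EtOH_LPS, 4.31 ± 0.172 in EtOH, 30.6 ± 9.7 in PF_LPS and 3.71 ± 1.04 in PF (SD, n = 3 each), so like Hmox1 it was highest with ethanol and LPS together and low in both saline groups.

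Most like Osgin1 were Cyp2d9, a steroid-metabolizing cytochrome of male mice (r = 0.938), Rdh16f2 of the retinol dehydrogenase family (0.903), the brush border protocadherin Cdhr2 (0.896), the sterol 27-hydroxylase Cyp27a1 (0.894) and Rarres2, which encodes chemerin (0.893). After removing group means r was 0.807, 0.783, 0.921, 0.693 and 0.774 in this order. Cyp2d9 averaged 66.9 ± 18.1 FPKM in EtOH_LPS and 64.7 ± 6.78 in EtOH, against 24.8 ± 13.4 in PF_LPS and 32.7 ± 4.18 in PF (SD, n = 3 each). Cyp2d9, Rdh16f2 and Gm5483 have close paralogs among which fragments could be split. All these r describe libraries that share diet, injection and base composition, and no p is given.

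**Figure D4:**
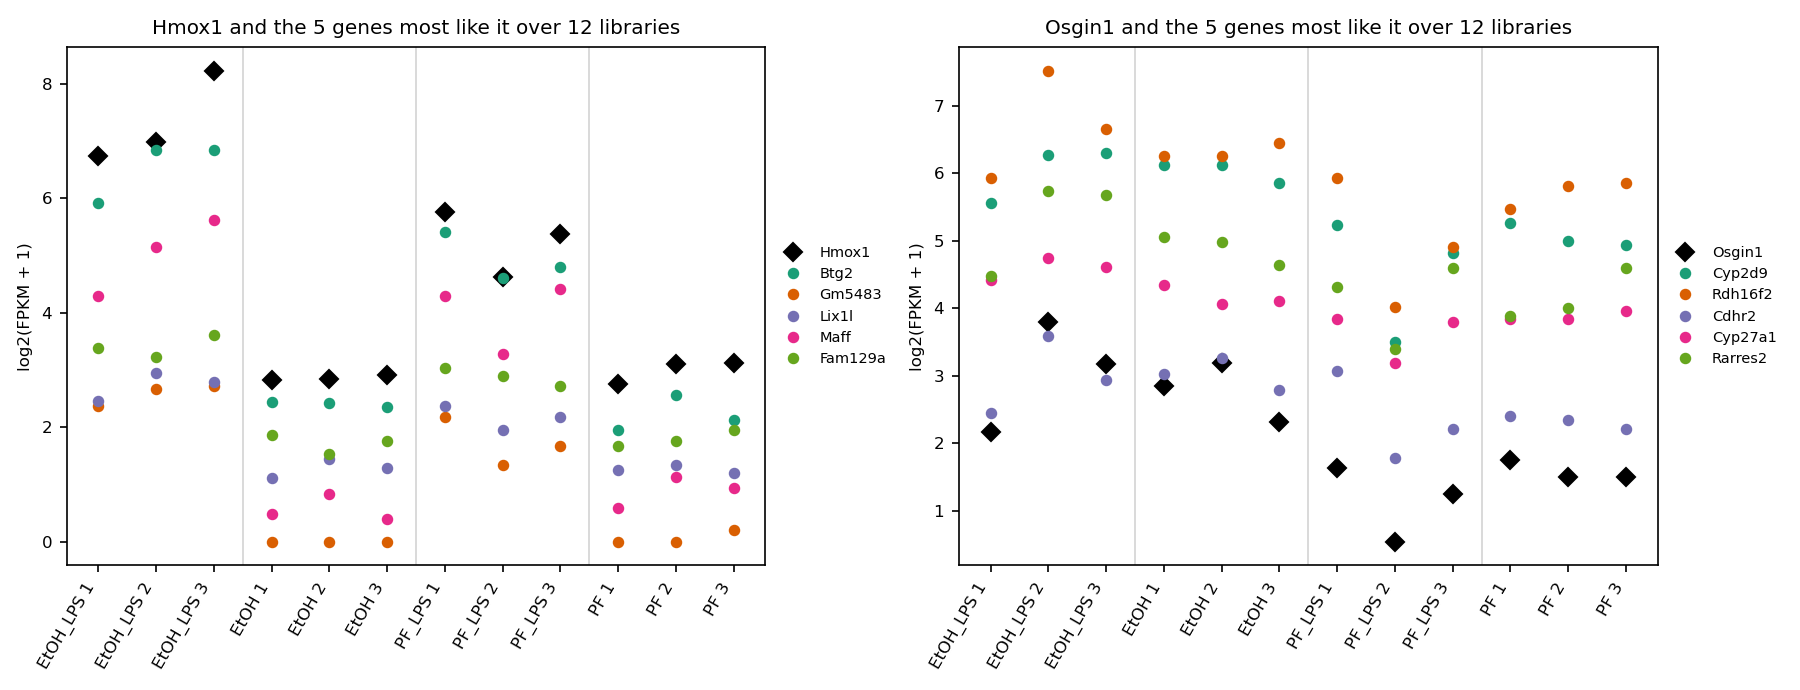
Levels as log2(FPKM + 1) (y axis) in each of 12 libraries (x axis, by group) of Hmox1 with the 5 genes most like it on the left and of Osgin1 with its 5 on the right; each point is a library. The left genes are high in all 6 LPS libraries, and on the right Osgin1 is low in PF_LPS library 2 and highest in EtOH_LPS library 2.

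Some markers of other cells moved along with LPS. Summed levels of 8 neutrophil and inflammatory monocyte markers were 169 to 256 FPKM in EtOH_LPS, against 6.14 to 9.33 FPKM in EtOH, with 4 of 6 tested genes higher and 1 lower. They were 184 to 427 FPKM in PF_LPS, against 7.14 to 9.82 FPKM in PF, with 5 higher and 1 lower. Of all tested genes 10.7% were called higher and 6.39% lower in EtOH_LPS against EtOH, and 11.3% and 6.89% in PF_LPS against PF. The marker that fell was Ccr2 in both comparisons (log2 fold change -1.37 ± 0.20 on the ethanol diet and -1.04 ± 0.20 with pair-feeding). S100a8 and S100a9 made up most of these sums, at means of 75.7 and 118 FPKM in EtOH_LPS and 111 and 145 FPKM in PF_LPS. Macrophage markers, cells known for heme oxygenase 1, summed to 7.62 to 11.9 FPKM in EtOH_LPS, 11.4 to 17 in EtOH, 5.81 to 13.6 in PF_LPS and 9.86 to 16.4 in PF over 10 genes, of which 6 were tested and none was called.

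Erythroid markers, whose hemoglobin is a source of heme, summed to 232 to 518 FPKM in EtOH_LPS, against 120 to 248 in EtOH, and to 203 to 586 in PF_LPS, against 173 to 306 in PF. Of 5 tested, Alas2 rose in EtOH_LPS against EtOH (1.06 ± 0.17, limma adjusted p = 0.0011). Endothelial markers summed to 40.1 to 52.9 FPKM in EtOH_LPS, against 101 to 120 in EtOH, and to 32.7 to 40.2 in PF_LPS, against 90.3 to 115 in PF, with 1 of 6 higher and 5 lower in each comparison. Beside these counts, 10.7% of all tested genes were called higher and 6.39% lower on the ethanol diet, and 11.3% and 6.89% with pair-feeding. All 8 proximal tubule markers of the cortex were tested, and none was called in an LPS comparison. The part of these markers in the LPS results of Hmox1, Nfe2l2, Gclc and Txnrd1 was not tested.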

How the data were processed

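RNA of 12 kidney cortex libraries was measured by sequencing of ribosomal-RNA-depleted, stranded libraries (per the labels' protocols, a TruSeq kit with Ribo-Zero Gold). The authors deposited 1 table of FPKM values. Per the submitters' processing notes, the tools named are TopHat2 2.0.4, Cuffnorm, Cuffdiff 2.1.1, Cufflinks 2.2.1 and FastQC 0.10.1, in no stated order, and the build is mm10. The strand setting is not given in the sources used here, nor is the annotation release. FPKM are not counts, fragment totals are unknown, and no count model or counting interval was used. Symbols and coordinates came from GENCODE M21, which matched 47305 of 47719 genes.

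Values were analysed as log2(FPKM + 1), a scale that understates changes of low genes. Genes that reached 1 FPKM in 3 or more libraries were fitted in limma 3.58.1 (R 4.3.3) with 1 mean per group over all 12 libraries and moderated variances (trend, robust). Tests were two-sided, with Benjamini-Hochberg adjustment over the 14109 genes tested and calls at an adjusted p under 0.05. Adjusted p-values are from this limma fit, which was tested on simulated data, or, where another setting is named beside them, from the same limma test repeated under that setting. An exact permutation test of 3 against 3 libraries cannot go below p = 0.1, so none is given. Relative depth was estimated from the steps between low values. Same-numbered libraries were not paired by the labels.

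The 10 genes, the wider lists and the markers were chosen with earlier results of these data known. Named by rule were the 10 genes, Hmox2, up to 4 called genes with groups not overlapping per list and comparison, and the 5 genes most like Hmox1 and Osgin1. Promoter windows came from RefSeq. The alternatives were another pseudocount, no filter, 3 other scalings, a replicate block, a fit without trend and robust prior or of only the compared groups, each library left out, and 3 libraries left out together.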

Additional observations from a re-analysis of the deposited data

How the results depend on the processing

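The counts of calls among the 9 genes and among all genes, and 38 single-gene results, were computed again under 21 other settings. There were 20 over both diets and for the interaction, where no fit of only the compared groups was made. Alas2, Prdx1, Gsta2, Abcc4, Akr1b8 and Ephx1 were not among these single-gene results. Of 793 repeats of single-gene results 753 kept direction and side of the threshold or moved within the spread, 26 were weaker, 12 moved and 2 reversed: Txnrd1 in PF_LPS against PF was -0.10 with equal total FPKM, and Gclm in EtOH_LPS against EtOH was -0.08 with quantile normalization. The cause was not tested. Many of the repeats could not change the fold change, such as those that left out a library of a group not compared. For Hmox1, Osgin1 and Gclc only the fold change was compared. A result not called in either setting also counted as kept, unless its direction turned. The number kept is therefore no measure of robustness. The number of the 9 genes called was 2 in PF_LPS against PF and 1 with equal total FPKM. It was 0 in EtOH against PF and 1 (Gclc) without PF_LPS library 2, EtOH_LPS library 1 and PF library 1 together, a setting chosen after seeing the data. It was 0 in EtOH_LPS against PF_LPS, 1 (Osgin1) in that same setting, 2 (Hmox1 and Osgin1) without EtOH_LPS library 1 and 1 (Hmox1) without PF_LPS library 1, with a range of 0 to 2 when any library was left out. Over both diets it was 1 (Osgin1) and 0 with a pseudocount of 0.1 FPKM, no filter, equal total FPKM, the replicate block or no trend and robust prior, with a range of 0 to 1 when a library was left out.

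Of all genes, 2561 were called in PF_LPS against PF, with 1612 to 2751 when a library was left out (1612 without PF library 2 and 1628 without PF library 3). In EtOH_LPS against EtOH 2406 were called, with 1702 to 2647. In EtOH against PF 4 were called, with 8 without filter, 16 in a fit of only those groups, 14 without the 3 libraries and 3 to 7 without a single library. In EtOH_LPS against PF_LPS 14 were called, with 6 at a pseudocount of 0.1 FPKM, 1 without filter, 2 with equal total FPKM, 7 with median-ratio size factors, 7 without trend and robust prior, 39 without the 3 libraries and 1 to 43 without a single library. Over both diets 45 were called, with 13 without filter, 26 with equal total FPKM and 7 to 76 without a single library. In the interaction 4 were called, with 7 without filter, 18 without the 3 libraries and 3 to 7 without a single library.

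With the replicate number as a block, 2 genes in place of 14 were called in EtOH_LPS against PF_LPS, 9 in place of 45 over both diets and 0 in place of 1 of the 9 genes over both diets, and Fth1 in EtOH_LPS against EtOH had an adjusted p of 0.0514. The block ended no other call among the single-gene results and counts that were computed again. It moved the other counts of all genes by less than 1.5 times (2283 in PF_LPS against PF, 2184 in EtOH_LPS against EtOH and 3 in EtOH against PF). Deviations of same-numbered libraries from their group means correlated at -0.206 to 0.279 over 18 pairs. Differently numbered libraries were not set beside them, so whether same-numbered libraries share more than a number was not tested.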
